A study of Zea mays with 4 samples.

Results

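A group of 5 genes of amide nitrogen metabolism and lysine breakdown was followed in the growing tip of the maize root. They were picked by NCBI gene number from a table of 48174 genes: the 3 genes named as asparagine synthetases in the gene table, asn1 (GeneID:542435), asn2 (GeneID:100192349) and asn3 (GeneID:100192350), the glutamate dehydrogenase gene gdh1 (GeneID:542220) and the lysine degradation gene lkrsdh1 (GeneID:541648). All 5 were found. Maize is known to have a further asparagine synthetase gene, which carries no such name in the gene table, was not looked for here and is outside every share and sum of the asn genes below. The choice was made with their values in these libraries known, asn3 and lkrsdh1 for their spread between replicates, so their levels and spread are given as a description with no test. Seedlings were of Zea mays B73, the inbred line of the maize reference genome. They were germinated for 3 days at 28 °C in continuous light, and sat 2 h in swirled water before the last 1 mm of primary and seminal roots was cut and pooled. The 4 libraries are replicates of that single group, and no untreated or later group stands beside it. The labels call them biological replicates without saying what was separate, so the spread between them may be partly technical.

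Asparagine synthetase transfers the amide nitrogen of glutamine to aspartate. The product, asparagine, carries much nitrogen per carbon, and plants use it to store and move nitrogen, above all when sugar is short or light is absent. Glutamate dehydrogenase is a mitochondrial enzyme that interconverts glutamate with 2-oxoglutarate and ammonium, and so links amino acids to the citric acid cycle. The lkrsdh1 gene encodes a bifunctional enzyme, lysine-ketoglutarate reductase and saccharopine dehydrogenase, which takes the first steps of lysine breakdown and releases glutamate. In maize endosperm its gene is known as a target of the transcription factor Opaque2.

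Of the counts of these 3 asn genes, 88.8% or more came from asn1 in every library. It stood at 141.8, 147.1, 139.4 and 131.1 CPM in replicates 1 to 4 (CPM, counts per 1000000 counts in the library), or 139.8 ± 6.67 CPM (SD, n = 4). The 4 values lay close together, with the highest library 1.12 times the lowest.

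The asn2 gene was near the limit of detection in every library. It had 5, 6, 10 and 4 counts, or 0.191, 0.247, 0.373 and 0.171 CPM, with a mean of 0.246 ± 0.0907 CPM (SD, n = 4). The exact 95% Poisson interval of its highest library, 4.80 to 18.4 counts, overlapped that of its lowest, 1.09 to 10.2 counts, and no library could be told from another at this depth. A count of 0 would allow up to 0.112 to 0.128 CPM, taken as 3 counts of the total. These intervals and limits cover counting error only.

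The asn3 gene was low in 3 libraries and high in 1. It had 44, 444, 55 and 19 counts in replicates 1 to 4, or 1.68, 18.3, 2.05 and 0.812 CPM. Replicate 2 was 12.1 times the mean of the others and 8.93 times the next library, replicate 3. The exact Poisson interval in replicate 2, 16.6 to 20.1 CPM, did not overlap the intervals of the others, which together spanned 0.489 to 2.67 CPM. The mean of 5.71 ± 8.41 CPM (SD, n = 4) describes none of the 4 libraries, and without replicate 2 it was 1.52 ± 0.636 CPM over 3 libraries. Because replicate 4 fell under 1 CPM, asn3 did not meet the detection limit used here of 1 CPM in every library.

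The gdh1 gene was close to asn1 in level of read counts. It stood at 132.9, 150.1, 138.1 and 134.5 CPM, or 138.9 ± 7.80 CPM (SD, n = 4), and replicate 2 was again the highest. The ratio of gdh1 to asn1 counts was 0.937, 1.02, 0.990 and 1.03 in replicates 1 to 4, so the order of the pair changed between libraries and was not resolved.

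The lkrsdh1 gene was well expressed and spread widely. It stood at 76.0, 120.3, 66.6 and 44.1 CPM, or 76.8 ± 32.0 CPM (SD, n = 4). Replicate 2 was 1.58 times the next library and replicate 4 was 0.503 times the mean of the others, and both ends of the range stood apart. The exact Poisson intervals of the 4 libraries did not overlap: replicate 3, at 63.6 to 69.8 CPM, lay below replicate 1, at 72.7 to 79.5 CPM. Counts of gdh1 exceeded those of lkrsdh1 in 4 of 4 libraries, by 1.25 times in replicate 2 and 3.05 times in replicate 4.

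**Figure D1:**
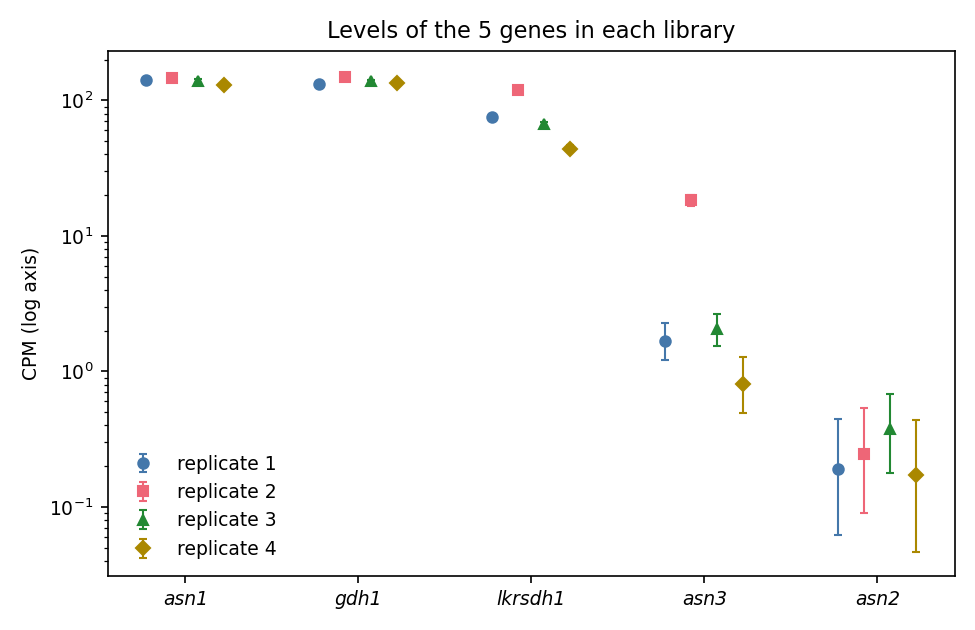
Level of each gene in each library, in CPM on a log axis; points are libraries and bars are exact 95% Poisson intervals of the counts. The points of asn1 and gdh1 lie together between 131.1 and 150.1 CPM, whereas asn3 reaches 18.3 CPM in replicate 2 and 0.812 to 2.05 CPM in the others.

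By mean CPM the order was asn1, gdh1, lkrsdh1, asn3 and asn2, at ranks 1393, 1413, 3061, 16195 and 24459 of the 48174 genes. The neighbours asn1 and gdh1 did not differ beyond their spread, and lkrsdh1 lay below both in every library, while asn3 lay below lkrsdh1 and above asn2 in every library. These are levels of read counts. CPM is not divided by transcript length, no transcript lengths were used, and the order of genes per length was not measured.

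The split of counts among the 3 asn genes differed between libraries through asn3. The share of asn1 in the counts of the 3 genes was 98.7%, 88.8%, 98.3% and 99.3% in replicates 1 to 4. The share of asn3 was 1.17% in replicate 1 (exact Clopper-Pearson 95% interval 0.853 to 1.57%), 11.1% in replicate 2 (10.1 to 12.1%), 1.45% in replicate 3 (1.09 to 1.88%) and 0.615% in replicate 4 (0.371 to 0.959%). The interval of replicate 2 lay above those of the others. The share of asn2 was 0.130% to 0.263%, with intervals that all overlapped.

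The ratio of asn1 to asn3 counts was 84.2, 8.03, 68.0 and 161.3 in replicates 1 to 4. That of asn1 to asn2 was 374 to 766. In replicate 2 the summed level of the 3 genes was 165.6 CPM, against 132.0 to 143.7 CPM in the others. The asn1 level there was the highest of the 4 libraries. Its Poisson interval, 142.3 to 152.0 CPM, overlapped those of replicates 1 and 3, so that high was not resolved. All 5 genes had whole counts in all 4 libraries, within a tolerance of 0.001, whereas 5.17% to 5.64% of the nonzero values of a library were not whole. The rule by which reads shared between similar genes were assigned was not stated, so the split between the asn genes carries that uncertainty.

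**Figure D2:**
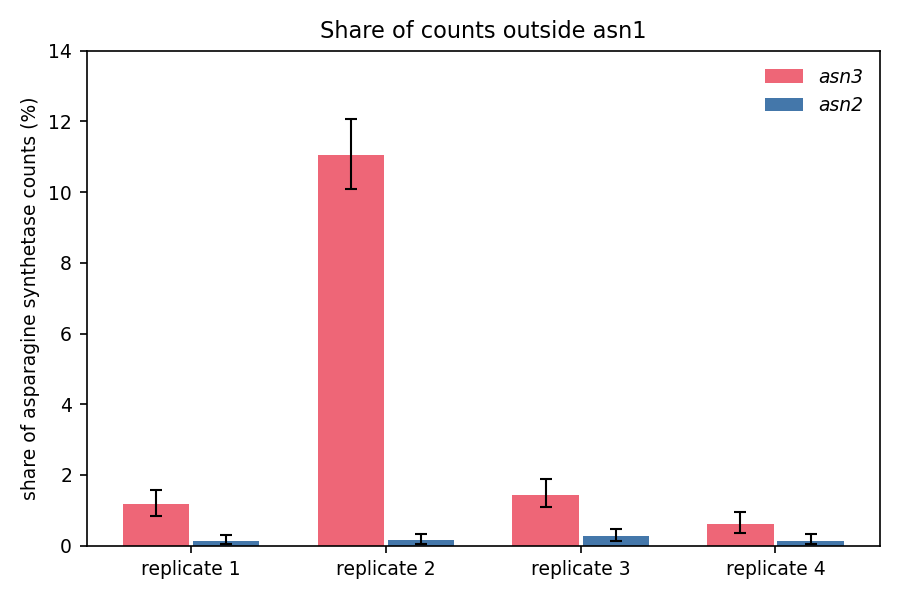
Share of the counts of asn1, asn2 and asn3 taken by asn3 and asn2 in each library, in percent; bars are shares and whiskers exact Clopper-Pearson 95% intervals, and the rest of each library's counts is asn1. The asn3 share is 11.1% in replicate 2 and 0.615% to 1.45% in the others.

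Spread was smaller for asn1 and gdh1 than for asn3 and lkrsdh1, which were chosen for theirs. The coefficient of variation (CV, SD over mean) was 4.77% for asn1 and 5.62% for gdh1, of which counting error alone would give 1.69% for each. It was 147% for asn3 and 41.6% for lkrsdh1, against 8.44% and 2.28% from counting. For asn2 the CV of 36.9% was no larger than the 40.0% that counting gives at its level.

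Each gene was ranked by CV among itself and the 500 tested genes of nearest mean CPM. Of these 501 genes asn3 ranked 1 (median CV of its neighbours 9.48%) and lkrsdh1 ranked 1 (4.16%), while asn1 ranked 188 (3.95%) and gdh1 ranked 128 (3.93%). In the edgeR quasi-likelihood fit over 22752 genes, the dispersion was 156.5 times the trend for asn3 and 81.7 times for lkrsdh1, against 1.11 times for asn1 and 1.63 times for gdh1. By this ratio asn3 stood at rank 1 and lkrsdh1 at rank 3 of all tested genes, which is the spread they were chosen for. In all, 9 of 22752 genes (0.0396%) were called more variable than others of their abundance at an adjusted p of 0.05. The asn2 gene had too few counts for the fit.

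The spread of asn3 and that of lkrsdh1 leaned on replicate 2 to unequal degrees. Without it the highest over the lowest library fell from 22.5 to 2.52 for asn3 and from 2.73 to 1.72 for lkrsdh1, and the CV became 41.9% and 26.3%. For gdh1 the CV without replicate 2 was 1.98%, and for asn1 4.10%. In the fit without replicate 2 the dispersion was 6.07 times the trend for asn3 and 28.8 times for lkrsdh1. Neither was then among the genes called more variable than others of their abundance. Without replicate 4 lkrsdh1 was outside the calls too, with a dispersion of 50.5 times the trend. Both were chosen for their spread, so their place in or out of these calls is a description and no test of them.

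**Figure D3:**
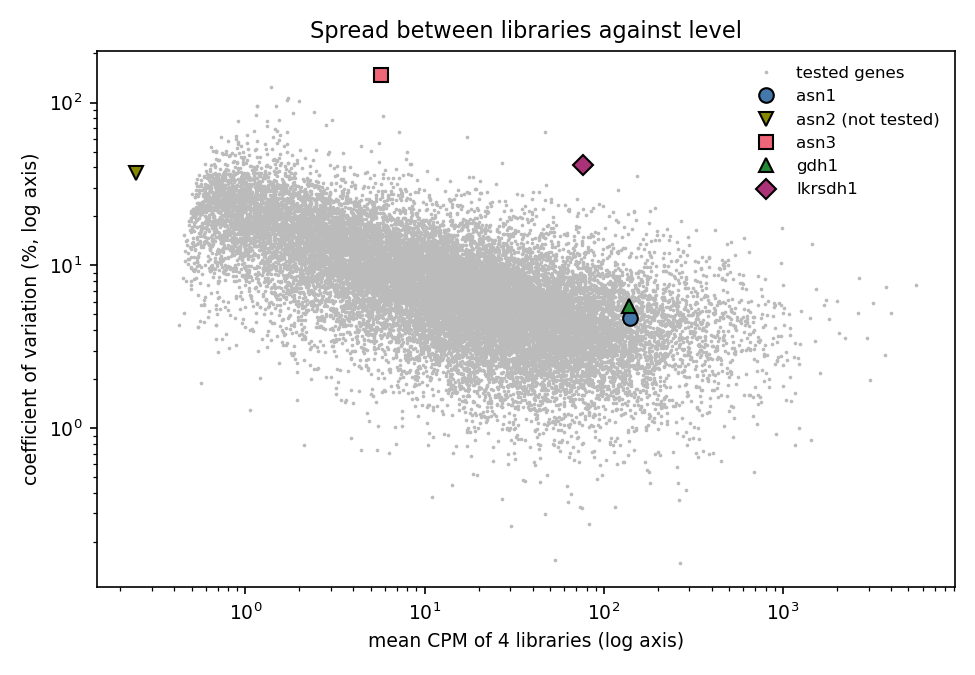
Coefficient of variation between libraries in percent against mean CPM, both on log axes; grey points are the 22752 tested genes and large markers the 5 genes. The asn3 marker, at 147%, and the lkrsdh1 marker, at 41.6%, stand above the genes of their level, and asn1 and gdh1 lie inside the cloud.

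Replicate 2 was not high overall. Of 21566 genes with a mean of at least 1 CPM, it was the highest library for 23.8%, against 23.4% to 26.8% for the others. It exceeded the next library by at least 1.5 times for 78 genes (0.362%), and replicates 1, 3 and 4 did so for 25, 46 and 15 genes. At the low end, replicate 4 was the lowest library by at least 1.5 times for 79 genes, and replicates 1, 2 and 3 for 46, 26 and 38. Of the 5 genes, asn1, asn3 and lkrsdh1 had replicate 2 highest and replicate 4 lowest, as did 1802 of the 21566 genes in all (8.36%). In asn1 these were steps of a few percent, and by Poisson interval neither end was resolved from its next library. As to size, 72 genes (0.334%), asn3 and lkrsdh1 included, had a highest over lowest library of at least that of lkrsdh1. For 2 genes (0.00927%), asn3 itself and LOC118472096, it was at least that of asn3. The median gene had 1.16.

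Marker lists of other tissues were looked at beside asn3 and lkrsdh1. Of 51 seed storage genes, 44 were at 0 in all libraries, the zein genes gz16 and gz50 among them, and none reached 1 CPM in every library. Their summed level was 1.19, 1.77, 1.45 and 1.11 CPM in replicates 1 to 4, from 31, 43, 39 and 26 counts. The sums ran in the same order as the asn3 values, but their exact 95% Poisson intervals overlapped, so that order was not resolved. Of the 7 genes with a count 2 were highest in replicate 2, 2 in replicate 3 and 3 in replicate 4. Their highest members were bz15 at 0.457 ± 0.190 CPM (SD, n = 4), z1A1_2 at 0.404 ± 0.126 CPM and gz27 at 0.189 ± 0.0848 CPM. The 20 photosynthesis genes, of which 6 were at 0 throughout, summed to 17.0, 18.1, 14.5 and 13.3 CPM, in the same order as the lkrsdh1 values. The Poisson interval was 16.5 to 19.9 CPM in replicate 2 and 11.9 to 14.9 CPM in replicate 4. ME1, an NADP-malic enzyme gene, carried most of the sum at 14.1 ± 2.14 CPM (SD, n = 4), before CAB1 at 0.567 CPM and Cab-m7 at 0.362 CPM. Without ME1 the other 19 summed to 1.34, 2.02, 1.34 and 1.75 CPM with overlapping Poisson intervals, so their order was not resolved. Whether either tissue had a part in the asn3 and lkrsdh1 values was not tested. The 12 root tip genes, histone, PCNA, SCR and PIN1a, were detected in every library and summed to 3090 to 3252 CPM, led by hon110, hon102 and his2b2. The 8 xylem and secondary wall genes summed to 5.82 to 8.35 CPM, highest in replicate 3 and led by lac3, LAC1 and cesa11. The 10 low oxygen genes summed to 6251, 7201, 7392 and 7034 CPM, lowest in replicate 1 and led by sus1, sh1 and pdc3. The alcohol dehydrogenase gene adh2, named here after its values were seen, stood at 156.2, 255.0, 176.7 and 181.95 CPM with replicate 2 highest (edgeR adjusted p = 0.0721). Of the 10 low oxygen genes, 5 were highest in replicate 2, against 23.8% of genes with a mean of at least 1 CPM. The rest were highest in replicate 3 (sus1, pdc1 and Hbm) or replicate 4 (adh1 and Hb2). In bulk tissue, fewer cells of a type and less RNA per cell cannot be told apart.

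The other detected genes of lysine metabolism, dps1 and ALDH7, had a smaller spread than lkrsdh1, with CVs of 6.74% and 3.92%. The dps1 gene, for dihydrodipicolinate synthase, the entry enzyme of lysine synthesis, stood at 61.3, 57.8, 56.6 and 65.7 CPM, highest in replicate 4, where lkrsdh1 was lowest. ALDH7, of the aldehyde dehydrogenase family whose human member oxidises the semialdehyde made from lysine, stood at 81.4, 88.6, 82.1 and 83.1 CPM. Neither was called more variable than others of its abundance (edgeR quasi-likelihood dispersions, adjusted p = 0.994 for each). Opaque2 (o2), known for driving lkrsdh1 in endosperm, had no count in any library, which allows up to 0.112 to 0.128 CPM. The lkrsdh1 gene stood at 44.1 CPM or more, and whether Opaque2 has a part in its level here was not tested.

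The aspartate pathway genes upstream of lysine, AKHSDH1 and akh2, had CVs of 5.52% and 13.3%. AKHSDH1, which encodes an aspartate kinase fused to homoserine dehydrogenase, stood at 73.7 ± 4.07 CPM (SD, n = 4), and its paralog akh2 at 8.33 ± 1.11 CPM. The larger part of the pair's counts came from AKHSDH1 in every library. Both varied beyond counting error (chi-square against Poisson, adjusted p = 0.00342 and 0.0439), and neither beyond genes of its abundance (edgeR adjusted p = 0.994 for each).

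Glutamine, the amide donor for asparagine, is made by glutamine synthetase. Of its 6 genes 5 were detected, led by gln4 at 387.7, 386.0, 396.8 and 385.5 CPM, a CV of 1.36%. The gln4 counts were not all whole, so its share of reads is less certain than that of the asn genes. The gln5 gene stood at 163.9 ± 13.1 CPM (SD, n = 4), GLN6 at 43.7 ± 12.3 CPM, gln2 at 35.1 ± 1.48 CPM and gln1, also named for the plastid form gs2, at 3.32 ± 0.530 CPM, while gln3 stayed at 0.380 ± 0.135 CPM.

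Of the 17 tested genes of the pathway lists outside the 5, GLN6 had the highest dispersion relative to the trend and a CV of 28.2%. It stood at 28.2, 43.9, 58.3 and 44.3 CPM, with its low in replicate 1 and its high in replicate 3. Its dispersion was 34.3 times the trend and missed the threshold (edgeR adjusted p = 0.0649), but passed it over all genes with a count (6.29e-09) and without replicate 3 (0.0221). Its highest and lowest libraries were not those of asn3 and lkrsdh1, both highest in replicate 2 and lowest in replicate 4.

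Glutamate supply and nitrate reduction differed in level. Ferredoxin-dependent glutamate synthase (fgs1) stood at 101.5 ± 4.40 CPM (SD, n = 4). The nitrate reductase genes NAR and NNR1 stood at 4.32 ± 0.991 and 2.22 ± 0.372 CPM, and the nitrite reductase gene NIR at 3.83, 5.24, 3.80 and 3.85 CPM. Replicate 2 was the highest for NAR, NNR1 and NIR, and none of the 3 was called more variable than others of its abundance (edgeR adjusted p = 0.821, 0.994 and 0.994). NNR1 and NIR did not vary beyond counting error (chi-square against Poisson, adjusted p = 0.401 and 0.106), so their highest library was not resolved. By the same chi-square test NAR did (adjusted p = 0.00366), with its lowest value, 2.87 CPM, in replicate 3. Without replicate 3 it did not (adjusted p = 0.850), so its high in replicate 2 was not resolved either.

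ALDH12, of the aldehyde dehydrogenase family that completes proline breakdown, stood at 205.8 ± 3.52 CPM (SD, n = 4). Among genes for SnRK1, the kinase complex that in plants responds to low energy, the kinase gene SnrK1 stood at 42.9, 47.2, 44.7 and 37.3 CPM. It was highest in replicate 2 and lowest in replicate 4, though by a far smaller ratio (1.26) than asn3. Without replicate 4 its counts did not vary beyond counting error (chi-square against Poisson, adjusted p = 0.188), so its highest library was not resolved. The regulatory subunit genes akin1 and Snf-4 like stood at 91.7 ± 2.29 and 82.6 ± 2.87 CPM.

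Over all 6 lists, 17 of the 19 genes other than the 5 were detected and tested. By edgeR, 0 of the 17 were called more variable than others of their abundance, against 9 of the 22752 tested genes. An unadjusted edgeR p under 0.05 was found for 2 of the 17, GLN6 and NAR, against 1352 of the 22752. DESeq2 marked 1 of the 17, GLN6, as a dispersion outlier, against 174 of all tested genes. Of the 17, 8 varied beyond counting error, against 25.7% of all tested genes and 27.8% of the 19226 tested genes within the same range of mean CPM. That range takes in most tested genes and does not match the 17 for level. The median CV of the 17 was 6.74%, beside 6.96% for all tested genes, which is no comparison at equal level. The median of mean CPM was 43.7 for the 19 genes and 15.3 for all tested genes. Among the 500 tested genes nearest in level, the median CV was 9.48% for asn3 and 4.16% for lkrsdh1, the gene of higher level. Of the 17, 7 had replicate 2 highest and 9 had replicate 4 lowest. Among the 21566 genes with a mean of at least 1 CPM these shares were 23.8% and 25.6%.

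**Figure D4:**
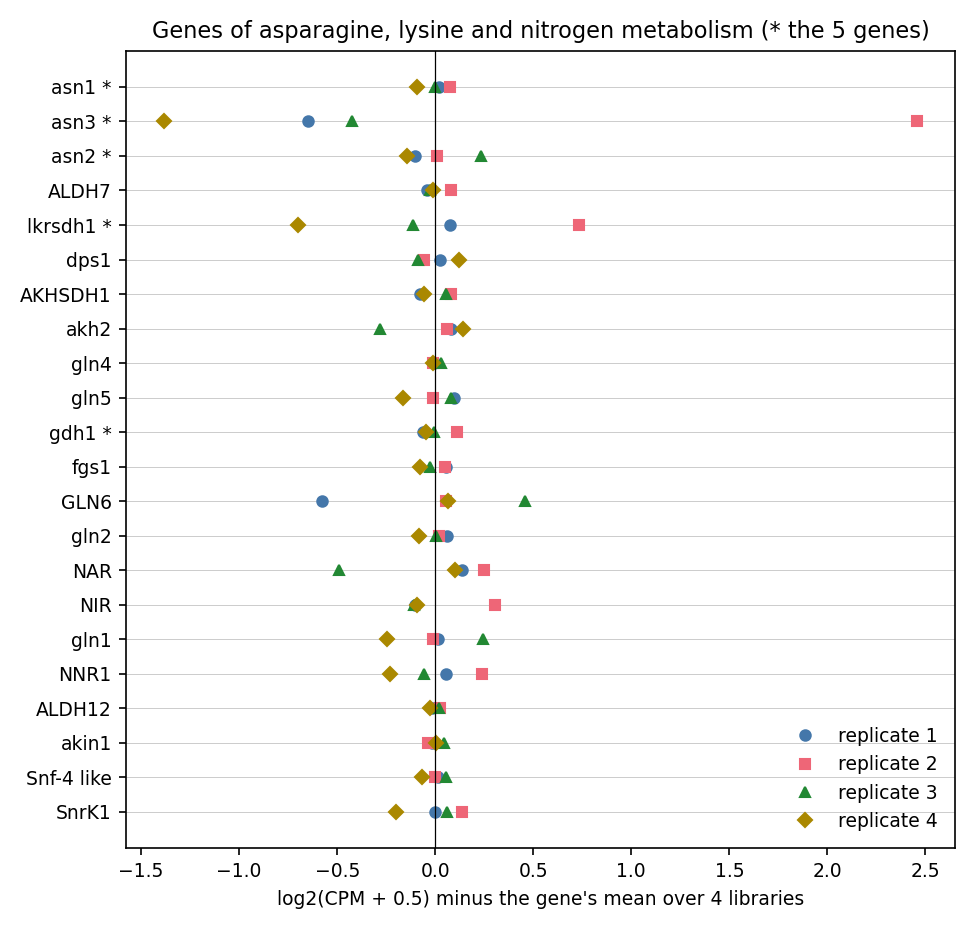
Deviation of each library from the gene's mean on the log2(CPM + 0.5) scale, for the 5 genes (asterisks) and the 17 detected genes of the lists; points are libraries. The values of asn3 run from -1.38 to 2.46 and those of lkrsdh1 from -0.70 to 0.74, and most other genes stay near 0.

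The genes with the profile nearest to asn3 were picked for its single high library, so that they share it is no finding. Likeness was the root mean square difference over the 4 libraries of log2(CPM + 0.5) centred on each gene, among 21565 other genes with a mean of at least 1 CPM. The 5 nearest lay at 0.391 to 0.594 on this log2 scale. They stood at 3.46 to 8.41 CPM in replicate 2 and at 0.0855 to 1.68 CPM in the others. For 4 of the 5 the mean of the other libraries was under 1 CPM, and they met the minimum mean only through replicate 2. Of the 5, 1 has a name in the gene table, LOC542252 (mas1), for malate synthase of the glyoxylate cycle, which lets plant cells make sugar from fat. It had 44, 204, 44 and 9 counts, or 1.68, 8.41, 1.64 and 0.385 CPM. The partner gene of that cycle, icl1 for isocitrate lyase, was looked at after these values were seen, and was at 0, 0.227, 0.0186 and 0 CPM, too low to compare beyond its counts of 0 to 5.5.

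The other 4 were LOC118472096, LOC100193688, LOC109944789 and LOC100274124, with a highest over lowest library of 8.98 to 40.5. In their low libraries these genes had few counts, so the sizes of these ratios are uncertain.

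The 5 genes nearest to lkrsdh1 lay at 0.0416 to 0.119, closer than those of asn3. The asn3 profile was itself farther from flat, at 1.46 against 0.513 for lkrsdh1. These 5 too were picked for their likeness, so that they share the profile is no finding. For 2 of them the mean of the other libraries was under 1 CPM, and they met the minimum mean only through replicate 2. The 5 were LOC103654279, LOC100284739, LOC100217062, LOC100283197 and LOC103632743, none with a gene name that tells its function. They stood at 2.06 to 15.9 CPM in replicate 2 and 0.385 to 6.63 CPM in replicate 4, all below lkrsdh1 in level. Their highest over lowest library was 2.40 to 5.36, against 2.73 for lkrsdh1. The 0.5 added before the log draws low genes toward flat, so a low gene can lie close with a larger ratio. LOC103654279, the nearest, and LOC103632743 stood at 0.513 and 0.385 CPM in replicate 4, so their ratios are uncertain. From asn3, lkrsdh1 lay at 1.01 on the same log2 scale, at place 31 of 21565 genes, with replicate 2 highest and replicate 4 lowest in both. Seen from lkrsdh1, asn3 was at place 21565 of 21565, the farthest gene of all, and their distance exceeded that of lkrsdh1 from a flat profile (0.513). Between the ends, replicate 3 lay below replicate 1 for lkrsdh1. For asn3 replicate 3 lay above replicate 1, but their Poisson intervals, 1.54 to 2.67 and 1.22 to 2.26 CPM, overlapped and that order was not resolved.

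**Figure D5:**
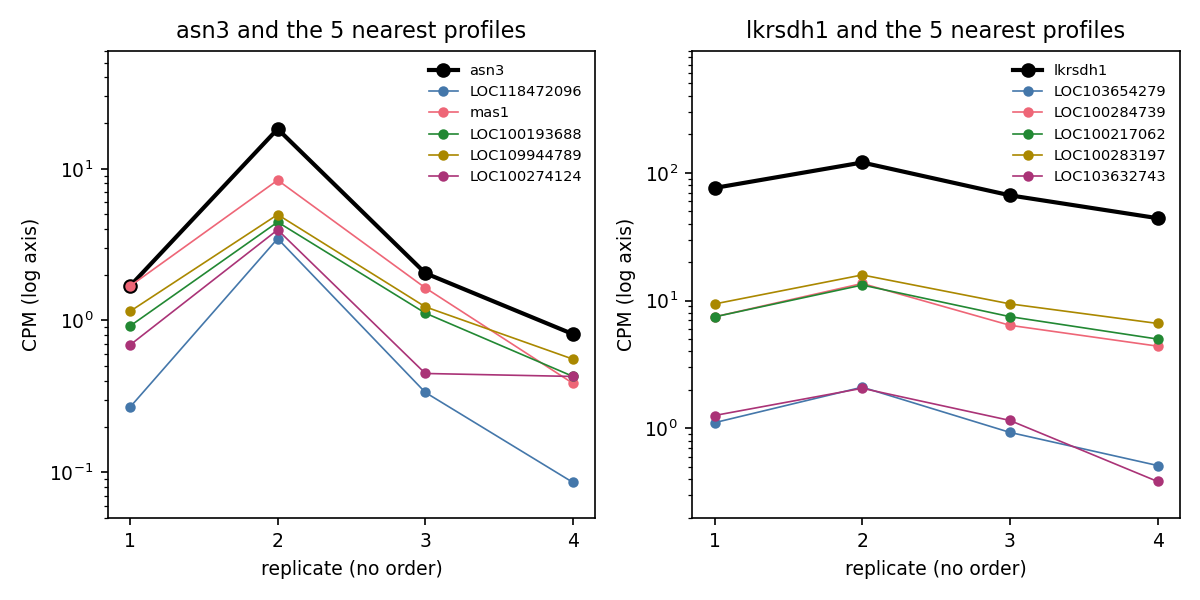
CPM in each replicate on a log axis for asn3 (left) and lkrsdh1 (right), each with its 5 nearest profiles; thin lines join the points of a gene and replicates have no order. On the left every gene peaks in replicate 2, where asn3 reaches 18.3 and mas1 8.41 CPM; on the right the peak is flatter, from 44.1 to 120.3 CPM for lkrsdh1.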

How the data were processed

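The values deposited for the 4 libraries of total RNA are estimated counts per gene, with no normalization. The tools listed in the submitters' processing notes, with no role stated, are HTSeq, UMI-tools, deepTools, SAMtools, STAR 2.7.10b and 2 versions of Trimmomatic (0.36, 0.39). The genome build, the strand setting and the treatment of duplicate molecules were not given in the sources used here. In 4 of 4 libraries the separate file equalled the joint table. Library totals were 26131723, 24246104, 26829395 and 23385589 counts, and 1637 to 3941 genes differed between any pair of libraries beyond counting error, so none was a copy of another.

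Gene names, found for 48127 of 48174 genes, came from the RefSeq table for Zm-B73-REFERENCE-NAM-5.0; its coordinates and gene spans were not used. A NAC factor gene that carries the synonym Asn1 was left out. Levels per coding length had been planned, but no lengths were at hand, and CPM was used. Counts were rounded for count models. In edgeR 4.0.16 (R 4.3.3) the filter was filterByExpr and the scaling TMM; quasi-likelihood dispersions were tested against their trend (upper-tail F), and counts by chi-square against Poisson error, each adjusted by Benjamini-Hochberg over 22752 genes at 0.05. DESeq2 1.42.0 gave other size factors and dispersion outliers. The tests were tried on simulated data. The genes and lists were chosen with earlier results of these data known. Besides the 5 genes, named genes are the detected genes of 4 pathway lists, the 3 highest of the others, and the 5 nearest profiles of asn3 and of lkrsdh1; marker lists are given by their sums.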

Additional observations from a re-analysis of the deposited data

Results flagged for a closer look

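Of 32 genes looked at besides the 5, 1 had a library far from the other 3, by the gap to the nearest value over the whole range. Chance flags about 1 in 20 groups. The asn3 gene meets the same measure, but it was chosen for its spread, so this is a description: replicate 2 stood at 18.3 CPM against a mean of 1.52 CPM in the others (gap over range 0.929). The gene outside the 5 was NIR, for nitrite reductase, where replicate 2 stood at 5.24 CPM against 3.83 CPM (0.967). The NIR counts did not vary beyond counting error (chi-square against Poisson, adjusted p = 0.106).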

How the results depend on the processing

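No paired analysis was possible because all 4 libraries belong to 1 group. Levels per coding length were not run, since no lengths were at hand. Of 112 values recomputed under other settings, 95 stayed within the spread between replicates or within 1.5 times, and none reversed. TMM and DESeq2 scaling moved no level or spread of the 5 genes by that much. Shares within a library do not change with scaling. Leaving out 1 of 4 libraries cannot shift a mean by the SD of the 4. In those settings levels and shares were bound to be counted as staying, so part of the 95 is no measure of robustness. Without replicate 2 the asn3 mean fell from 5.71 to 1.52 CPM and its mean share from 3.57% to 1.08%, both counted as staying. With each replicate left out in turn, the log2 ratio of the highest to the lowest library ranged from 0.0769 to 0.166 for asn1, 0.533 to 1.12 for asn2, 1.34 to 4.49 for asn3, 0.0557 to 0.176 for gdh1 and 0.785 to 1.45 for lkrsdh1. The asn3 and lkrsdh1 values were lowest without replicate 2, as was that of gdh1, while the lowest came without replicate 4 for asn1 and without replicate 3 for asn2. The edgeR call of excess spread, made for 9 genes, rested on the setting: 494 genes were called with no filter on low counts, 174 by DESeq2 as dispersion outliers, 2 under a non-robust prior, and 2 to 100 on 3 libraries (2 without replicate 2, 100 without replicate 3, 3 without replicate 4). The cause was not tested. Among these settings asn3 was outside the calls without replicate 2, and lkrsdh1 without replicate 2, without replicate 4 and with the non-robust prior. Both genes were chosen for their spread, so this is a description. The count of genes that vary beyond counting error, 5848, was 3073 to 5193 with a replicate left out, lowest without replicate 3. For the 19 listed genes the 8 beyond counting error became 4 to 7, lowest without replicate 4. Of the same 19, the 0 called more variable became 1 over all genes with a count, 1 by DESeq2, and 0 to 1 on 3 libraries (1 without replicate 3), GLN6 in each case. A pseudocount of 1 changed the SD of log2 values by more than 1.5 times for asn2 (0.170 to 0.103). Depth limits asn2, with 4 to 10 counts, and the low libraries of asn3, with 19 to 55 counts.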

Other observations

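The filter on low counts asks for a minimum level in all 4 libraries, and 7 of the 21566 genes with a mean of at least 1 CPM failed it. A gene of that mean can fail only with an uneven spread, so which genes failed follows from the filter and nothing is read from it. The malate synthase gene mas1 was left out of the test in this way with 9 counts in replicate 4. Of the 5 profiles nearest to asn3, 3 were tested for spread, and of those nearest to lkrsdh1, 4.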
